A study of Mus musculus with 97 samples.

Results

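The hearts of mice given tryptophan alone were compared with those of vehicle-treated controls of the same cohort, across all expressed genes. The members are 16 of the 97 libraries of the series, chosen from the labels as the hearts of experimental batch 3: 8 titled Tryptophan and 8 titled Control. All were female C57BL/6 mice from the Jackson Laboratory, 11 weeks old, kept on normal chow and without any genetic change in the labels. Tryptophan mice received intraperitoneal injections of 50 mg/kg tryptophan in phosphate-buffered saline every day at noon during the final week, and controls received the saline alone. Animals were assigned to groups at random. Animal numbers in the labels recur across the 2 groups and were taken to run within a treatment, not to mark the same animal. Each of 4 dissection batches, as the labels call them, held 2 hearts of each group. The whole series asks how non-steroidal anti-inflammatory drugs and tryptophan, alone or together, act on heart and jejunum transcripts. For one test below, 23 hearts of another cohort of females of the same strain and age were used, experimental batch 2. Of these, 7 came from mice fed naproxen at 1323 ppm and injected with saline, 8 from mice fed the same chow and injected with the same dose of tryptophan, and 8 from controls on normal chow and saline, which entered the fit and its plot but neither of the 2 differences compared. A further cohort, experimental batch 4, gave the jejunum of 8 tryptophan and 8 control females fed and injected as above.

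Tryptophan is an essential amino acid that feeds protein synthesis and several routes of breakdown and conversion. Most of it enters the kynurenine pathway, opened by Tdo2 in liver and by Ido1 and Ido2 elsewhere, which leads to kynurenic acid, quinolinate and NAD. A small share is hydroxylated by Tph1 or Tph2 to make serotonin, which platelets carry and which acts on the heart through its own receptors. Gut bacteria turn another share into indoles, and indoles and kynurenines are ligands of the aryl hydrocarbon receptor, whose textbook target genes are Cyp1a1, Cyp1b1 and Tiparp. Amino acid supply is also read inside cells, by mTORC1 at the lysosome and by the ATF4 response to uncharged transfer RNA.

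Depth, in units of 1000000 estimated counts, was 41.4 to 76.4 per library, with a mean of 57.7 ± 7.66 in controls and 51.6 ± 11.4 in tryptophan hearts (SD, n = 8 each; exact permutation test within dissection batch, two-sided, p = 0.19). Mitochondrially encoded genes took 23.3% ± 2.32 and 22.6% ± 2.24 of the counts. The markers fit the tissue label: the summed level of 10 ventricular markers was 55368 to 72318 CPM (counts per 1000000 counts of the scaled library), and none of them was at 0. Of 21 library features tested this way (3 of depth and composition, and the summed markers of 18 cell types), none had p below 0.05, the lowest being 0.127 for T and NK cell markers. One library, Control 6 of dissection batch 2, stood apart: its 11 white adipocyte markers summed to 1878 CPM, while the group median was 769.4, and it held 207 CPM of the brown fat gene Ucp1. The leading principal component took 26.9% of the variance, and 55.9% of it lay between dissection batches and 0.215% between treatments. The second took 11.7%, of which 47.2% lay between dissection batches and 11.3% between treatments. Leaving out any 1 of the 16 libraries, Control 6 included, left the count of called genes below at 0.

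No gene passed the test for tryptophan against control. Of 51368 genes in the table, 15805 were expressed highly enough to test, and 0 of them (0%) were called at an adjusted p of 0.05 with edgeR's quasi-likelihood test, in which dissection batch was a block. The smallest adjusted p was 0.9996. An unadjusted p below 0.05 was reached by 459 genes, or 2.9% of those tested, which is under the share of 0.05 that the threshold alone gives. Of these, 257 were higher in tryptophan hearts (1.63%) and 202 were lower (1.28%). The median log2 fold change over all tested genes was 0.00, with 8224 above 0 and 7581 below. Without Control 3 the count at an unadjusted p below 0.05 was 802, and without dissection batch 2 it was 916, both with 0 calls. DESeq2 on the same counts and design called 2 genes, Cx3cr1 and Csf2rb, with a smallest adjusted p of 0.0326, and limma voom called none, with 483 genes at an unadjusted p below 0.05.

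For most genes averaging 1 CPM or more, the fit set close limits on how large a difference could have gone unseen. The median standard error of a log2 fold change was 0.08 and the 95% interval reached a median of 0.16 to either side. Among the 13075 genes averaging 1 CPM or more, 12516 (95.7%) had an interval that lay wholly within a 1.5-fold change in either direction. For 80.1% the interval lay within a 1.25-fold change, and for 99.0% within a 2-fold change. Counts were simulated for this design over 15607 genes, drawn independently for each gene. The 200 changed genes all averaged 1 CPM or more. The same test recovered 36 of 67 genes changed by 1.25-fold, 57 of 67 by 1.5-fold and 62 of 66 by 2-fold. Of its 161 calls there, 6 were false. With fewer changed genes the adjusted threshold is stricter. These rates therefore do not carry over to that case, or to genes below 1 CPM. Genes of these hearts also moved together, as the list medians within batches below show, and independent draws leave this out. How far it alters the rates was not tested, so they are not the sensitivity of the real comparison.

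Enzymes that break tryptophan down were mostly near the limit of detection in the heart, and none was called. Of 17 genes of the kynurenine pathway and of NAD synthesis from it, 11 could be tested: 5 were higher and 6 lower, with a median log2 fold change of -0.02, beside 0.00 for all tested genes. The entry enzymes Tdo2 and Ido2 had 99 and 38 counts over all 16 libraries together, too few to test. Ido1, the entry enzyme induced by interferon, was at 0.204, 0.240 and 0.487 CPM in controls (lowest, median and highest of 8) and at 0.171, 0.315 and 0.411 CPM in tryptophan hearts. The groups overlapped between 0.204 and 0.411 CPM, and the log2 fold change was 0.11 ± 0.23 (SE), and -0.07 without dissection batch 1. Kmo, which hydroxylates kynurenine, had medians of 0.458 and 0.565 CPM and a log2 fold change of 0.22 ± 0.21. Kyat1, an aminotransferase that turns kynurenine into kynurenic acid, had medians of 25.6 CPM in controls and 23.8 CPM in tryptophan hearts (-0.07 ± 0.04), and Got2, which also does so and is better known as the mitochondrial aspartate aminotransferase, had 747 and 699.9 CPM (-0.08 ± 0.04).

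The list's lowest p belonged to Haao, which makes the precursor of quinolinate. Haao (ENSMUSG00000000673, GRCm38 chromosome 17, 83831156 to 83847963, minus strand, protein coding) was at 0.102, 0.185 and 0.416 CPM in controls and at 0.247, 0.275 and 0.806 CPM in tryptophan hearts. All 8 tryptophan hearts lay above the control median, and the highest control, Control 7, lay inside the tryptophan range. The log2 fold change was 0.93 ± 0.30 (95% interval 0.31 to 1.56, unadjusted p = 0.0061), positive in all 4 dissection batches, and the adjusted p was 0.9996 or above, as for every gene of the comparison.

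Genes of serotonin synthesis, storage and breakdown gave the same picture. Tph1 and Tph2 had 75 and 19 counts in all 16 libraries, and of 16 genes listed 11 were tested, 4 higher and 7 lower, with a median of -0.04. Maoa and Maob, the monoamine oxidases that degrade serotonin, had medians of 4.74 and 51.0 CPM in controls and 4.47 and 49.8 CPM in tryptophan hearts. Their log2 fold changes were -0.07 ± 0.07 and -0.06 ± 0.07. Slc18a2, the vesicular monoamine transporter, had a log2 fold change of -0.22 ± 0.19. Only 3 of 14 serotonin receptors could be tested, all with values below 0, among them Htr2a at medians of 1.35 and 1.23 CPM (-0.24 ± 0.18) and Htr7 at 0.592 and 0.582 CPM (-0.06 ± 0.20, and 0.05 without Tryptophan 7).

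Receptors for tryptophan metabolites and their targets were likewise uncalled. Ahr itself, the aryl hydrocarbon receptor, was at 4.38, 5.67 and 5.97 CPM in controls and 4.95, 5.73 and 6.68 CPM in tryptophan hearts. The groups overlapped between 4.95 and 5.97 CPM, and the log2 fold change of 0.05 ± 0.08 had an interval of -0.11 to 0.21. Without Tryptophan 7 it was -0.01. Of its list 14 of 15 genes were tested, 9 higher and 5 lower, with a median of 0.02. The targets Cyp1b1 (-0.18 ± 0.10) and Tiparp (-0.12 ± 0.06) were among the 5 lower. They were named for their low p within the list and do not stand for its direction. Gpr35, a receptor for kynurenic acid counted with this list, was at 0.170, 0.296 and 0.457 CPM in controls and 0.320, 0.434 and 0.725 CPM in tryptophan hearts. Its log2 fold change was 0.68 ± 0.24 (unadjusted p = 0.0111), positive in all 4 dissection batches.

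Uptake and sensing of amino acids showed small values in both directions. Of 17 tested transporters of tryptophan and other neutral amino acids, 6 were higher and 11 lower (median -0.03). Slc7a5, the light chain of the main tryptophan carrier, had medians of 3.12 and 3.27 CPM and a log2 fold change of 0.00 ± 0.09. Its heavy chain Slc3a2 had medians of 29.1 CPM in each group (-0.05 ± 0.05), and Slc38a4, a carrier of neutral amino acids, 7.77 and 8.88 CPM (0.17 ± 0.11). Wars, the transfer RNA synthetase that charges tryptophan, had medians of 34.5 and 34.1 CPM, and its log2 fold change of 0.00 ± 0.05 had an interval of -0.09 to 0.10. All 24 aminoacyl-tRNA synthetases were tested, 8 higher and 16 lower (median -0.01). The 24 tested ATF4 targets split into 12 higher and 12 lower, among them Chac1 (-0.25 ± 0.14) and Stc2 (-0.13 ± 0.07). Of 31 genes of mTORC1 and lysosomal nutrient sensing, 11 were higher and 20 lower (median -0.01), with Flcn, a regulator of mTORC1 at the lysosome, at -0.09 ± 0.04. In none of these 4 lists did a member have an unadjusted p below 0.05. The medians of the kynurenine, serotonin, AHR, transporter, ATF4 and synthetase lists each changed sign in 2 to 6 of the 31 alternative fits.

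The genes with the smallest p were named by a rule on sign, which left out Cx3cr1, described below. The naming rule took the 20 smallest p among genes of at least 1 CPM whose sign was the same in all 4 dissection batches, 8 of them higher and 12 lower in tryptophan hearts. None was called. Since sign and p chose these genes, their direction is a description only. The plot of the 20 genes shows each with its interval and its 4 values within dissection batches.

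**Figure D1:**
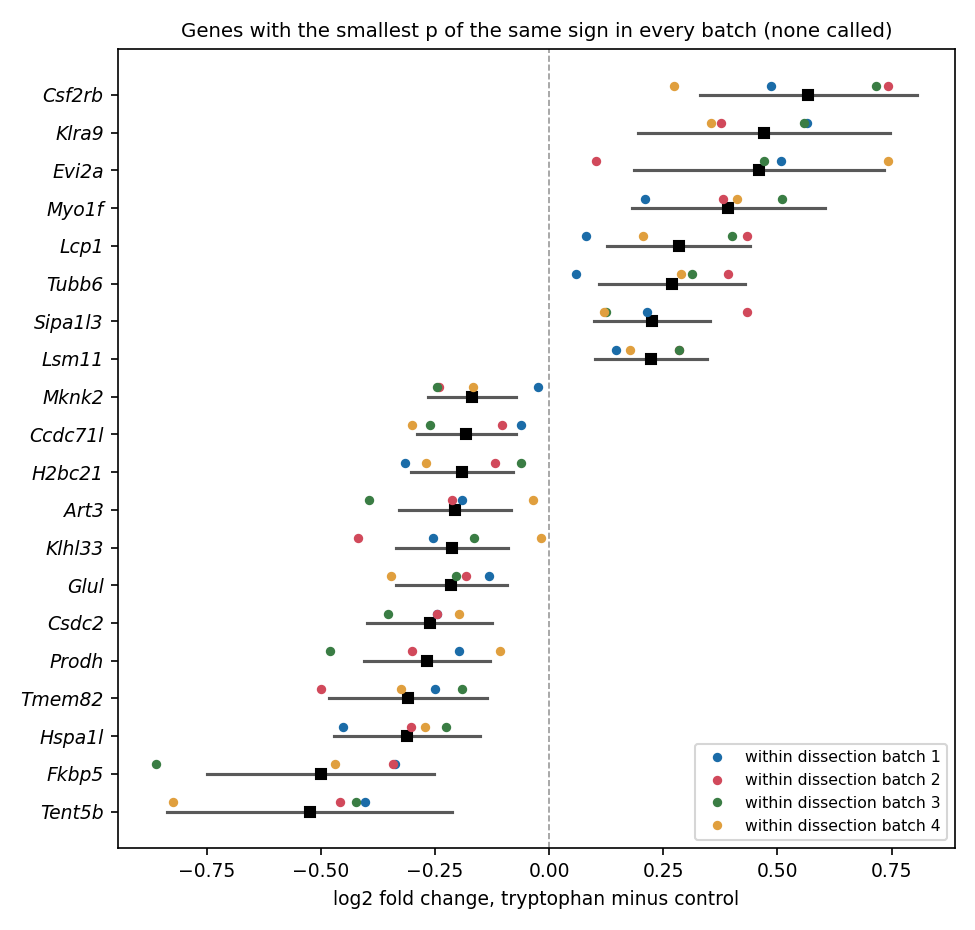
The 20 uncalled genes with the smallest p and 1 sign in all 4 dissection batches. Squares and lines are log2 fold changes with 95% intervals (tryptophan minus control, 8 against 8), and points are the differences of means within a batch (2 against 2); Csf2rb is highest at 0.57 and Tent5b lowest at -0.52.

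Csf2rb (ENSMUSG00000071713, chromosome 15, 78325752 to 78353847, plus strand, protein coding) had the smallest p of all genes. It encodes the beta chain shared by the receptors of GM-CSF and related cytokines on myeloid cells. Its level was 1.33, 1.59 and 1.97 CPM in controls and 1.9, 2.27 and 3.06 CPM in tryptophan hearts. The highest control lay just inside the lower end of the tryptophan range. The log2 fold change was 0.57 ± 0.11 (interval 0.33 to 0.80, unadjusted p = 0.000108). Its near-identical neighbour Csf2rb2 had a log2 fold change of 0.26 ± 0.15, and how the estimated counts were split between the 2 genes is uncertain.

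Cx3cr1, the fractalkine receptor of monocytes and resident macrophages, was the other gene called by DESeq2 (ENSMUSG00000052336, chromosome 9, 119901616 to 120069879, minus strand, protein coding). It was at 1.45, 1.59 and 2.25 CPM in controls and 1.40, 2.90 and 4.03 CPM in tryptophan hearts, with a log2 fold change of 0.70 ± 0.15 (interval 0.39 to 1.01, unadjusted p = 0.000199). Of the 2 tryptophan hearts of dissection batch 1, 1 lay within the control range and 1 just below it, and the 6 of the other batches lay above every control. The difference within batches was -0.04 in batch 1 and 0.99, 0.77 and 0.98 in batches 2 to 4.

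The other genes with values above 0 differed by less than Cx3cr1. Myo1f, an unconventional myosin of leukocytes, had medians of 2.70 and 3.38 CPM (0.39 ± 0.10), Lcp1, their actin-bundling plastin, 16.2 and 19.2 CPM (0.28 ± 0.07), and Klra9, a receptor of the natural killer family with near-identical relatives, 1.09 and 1.42 CPM (0.47 ± 0.13). Evi2a had a log2 fold change of 0.46 ± 0.13. The rest were Tubb6, a beta tubulin (0.27 ± 0.08), Lsm11, a subunit of the particle that processes histone messenger RNA ends (0.22 ± 0.06), and Sipa1l3, a regulator of a small GTPase (0.23 ± 0.06).

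Fkbp5, the co-chaperone of the glucocorticoid receptor that glucocorticoids strongly induce, had the lowest p of the genes with values below 0 (ENSMUSG00000024222, chromosome 17, 28399094 to 28517527, minus strand, protein coding). Its level was 15.9, 19.0 and 37.9 CPM in controls and 10.8, 14.7 and 21.9 CPM in tryptophan hearts. The groups overlapped, and the 2 controls of dissection batch 3, at 37.9 and 29.8 CPM, stood above all other hearts. The log2 fold change was -0.50 ± 0.12 (interval -0.75 to -0.25, unadjusted p = 0.000678), and -0.38 without that batch.

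Of the other genes with values below 0, Prodh, the mitochondrial enzyme that starts proline breakdown, was at 24.7, 29.5 and 35.9 CPM in controls and 18.6, 25.3 and 29.1 CPM in tryptophan hearts (-0.27 ± 0.07). Glul, glutamine synthetase, was at 336, 359 and 441 CPM in controls and 280.0, 318 and 398 CPM in tryptophan hearts (-0.21 ± 0.06). The groups overlapped between 24.7 and 29.1 CPM for Prodh and between 336 and 398 CPM for Glul. Mknk2, a kinase of a cap-binding initiation factor, had medians of 176 and 157 CPM (-0.17 ± 0.05). Hspa1l, a constitutive relative of the stress-induced chaperones, had medians of 6.10 and 5.05 CPM (-0.31 ± 0.08), and Csdc2, an RNA-binding cold shock domain protein, 72.2 and 58.8 CPM (-0.26 ± 0.06). The histone gene H2bc21, one of a family of near-identical copies, was at -0.19 ± 0.05, Art3, of the mono-ADP-ribosyltransferase family, at -0.21 ± 0.06, and Tent5b, of a family of poly(A) polymerases, at -0.52 ± 0.15. The rest were Tmem82 (-0.31 ± 0.08), Klhl33 (-0.21 ± 0.06) and Ccdc71l (-0.18 ± 0.05).

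**Figure D2:**
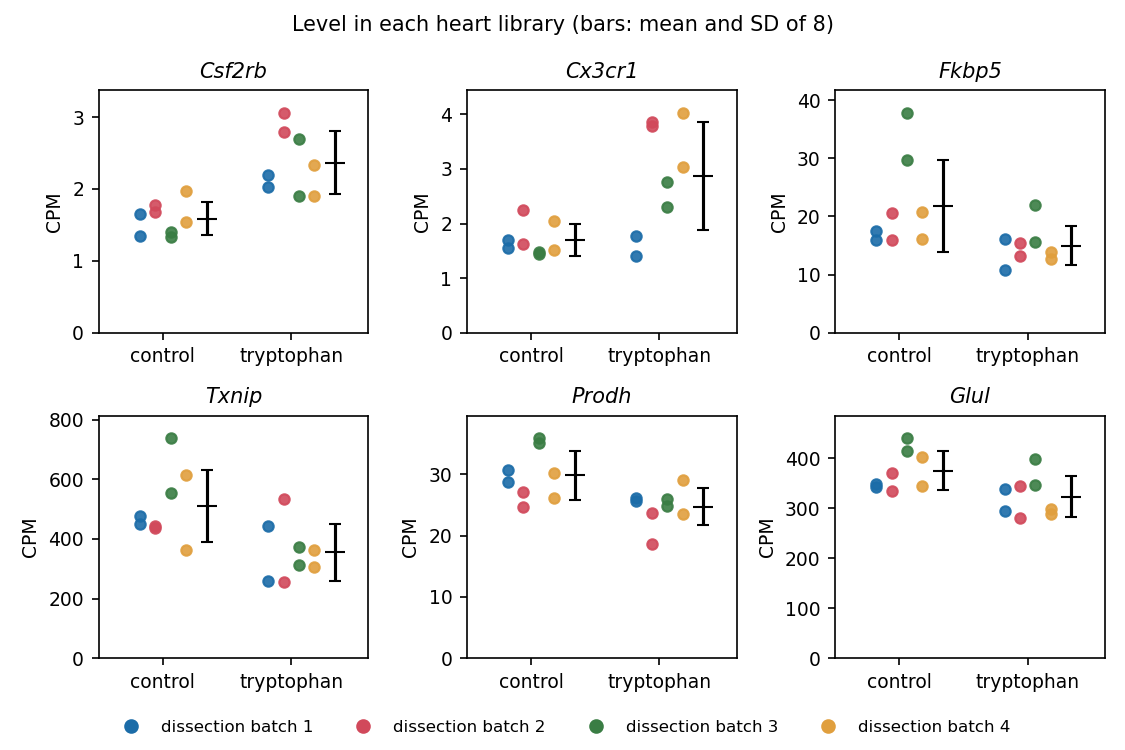
CPM (vertical axes, linear) of 6 genes in each of the 16 hearts, by treatment, with colours for the dissection batch and bars for the mean and SD of 8. The Csf2rb ranges meet at 1.9 to 1.97 CPM, the 2 tryptophan hearts of batch 1 sit at the level of the controls for Cx3cr1, and the 2 controls of batch 3 top the Fkbp5 panel.

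Glucocorticoid targets were the list with the most members at a low unadjusted p. Of 20 tested, 18 had values below 0 and 2 above, the median was -0.13, and 7 had an unadjusted p below 0.05, all with values below 0, beside 1.28% of all tested genes. No member was called. The list was chosen with earlier results of these libraries known, so its count is not independent evidence of a direction. Klf9, a transcription factor induced by the receptor, was at 118, 146 and 179 CPM in controls and 115, 124 and 151 CPM in tryptophan hearts (-0.19 ± 0.05). Mt2, a metallothionein, had medians of 11.3 and 8.19 CPM (-0.36 ± 0.12, and -0.24 without Control 3). The list's median was below 0 within each dissection batch, at -0.10, -0.25, -0.11 and -0.23, and in all 31 alternative fits.

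Genes of fuel choice that respond to fasting hormones overlapped with that list and also had values below 0. Pdk4, the kinase that shuts off glucose oxidation, was at 79.7, 142 and 333 CPM in controls and 59.2, 94.2 and 140 CPM in tryptophan hearts. Control 3 held the value of 333 CPM. Its log2 fold change was -0.56 ± 0.25, and -0.30 without Control 3. Angptl4, the lipoprotein lipase inhibitor, had medians of 3.44 and 2.29 CPM (-0.80 ± 0.30, and -0.53 without Control 3). Its highest value, 14.9 CPM, was in Control 6, the library with the most adipocyte transcripts, and the part of fat tissue in this value was not tested. Txnip, the arrestin-like protein that limits glucose uptake, was at 364, 464 and 738 CPM in controls and 254, 336 and 533 CPM in tryptophan hearts (-0.51 ± 0.18). Of 43 tested fatty acid oxidation and PPAR alpha genes, 36 had values below 0 (median -0.05) and 4 of these had an unadjusted p below 0.05, among them Ehhadh, a peroxisomal enzyme (-0.22 ± 0.07). Of 23 genes of the insulin and FoxO axis, 18 had values below 0 (median -0.06), 4 with an unadjusted p below 0.05, Txnip and Foxo3 (-0.15 ± 0.06) among them.

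All 22 tested genes of branched chain amino acid breakdown had values below 0, with a median of -0.06 and a range of -0.22 to -0.02. No member had an unadjusted p below 0.05. Hibadh, an enzyme of valine breakdown, had medians of 219.6 and 205 CPM (-0.09 ± 0.04), and Ivd, an enzyme of leucine breakdown, 376 and 369 CPM (-0.08 ± 0.04). Within dissection batches the list's median was -0.04, -0.12, -0.10 and 0.05. Of 19 tricarboxylic acid cycle genes, 18 had values below 0 (median -0.05), and so had 12 of 13 mitochondrially encoded messenger RNAs (median -0.07), again with no unadjusted p below 0.05. Values this small lay within the error of single genes, and genes of a list share libraries, so a count in 1 direction carries no test here.

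Clock genes, listed because many heart transcripts follow the time of day, had values mostly below 0. Of 18 core clock genes 12 had values below 0 (median -0.04), and of 14 clock output genes 11 had (median -0.10). Those with an unadjusted p below 0.05 were 2 and 4, all with values below 0. Ciart, a repressor of the clock activators, was at 6.19, 10.9 and 14.0 CPM in controls and 5.62, 9.04 and 11.3 CPM in tryptophan hearts (-0.33 ± 0.11). Nr1d1, the haem-binding repressor of Arntl, had medians of 120.0 and 109 CPM (-0.14 ± 0.06), Usp2, a rhythmic deubiquitinase, 123 and 114 CPM (-0.12 ± 0.04), and Hlf, an output transcription factor, 47.2 and 38.5 CPM (-0.18 ± 0.08). Per1, Per2, Cry1 and Arntl had unadjusted p-values of 0.126, 0.101, 0.168 and 0.208. The time of day at which hearts were dissected is not stated in the sources used.

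Leukocyte, antigen presentation and proliferation lists mostly had values above 0, again with no call. Of 13 macrophage markers 11 were higher and 2 lower (median 0.11), and 2 had an unadjusted p below 0.05, Cx3cr1 and Mrc1, the mannose receptor of resident macrophages (medians 24.3 and 24.6 CPM, 0.18 ± 0.08, and 0.12 without Control 6). The complement gene C1qb had medians of 26.8 and 28.5 CPM (0.15 ± 0.08, and 0.08 without Tryptophan 1). The 13 markers summed to 168 to 222 CPM in controls and 179 to 283 CPM in tryptophan hearts (exact permutation p = 0.236), and none was at 0 in every library of a group. In a bulk heart, a change in the number of cells of a type and in RNA per cell cannot be told apart.

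All 10 MHC class II genes had values above 0 (median 0.28), and none had an unadjusted p below 0.05. H2-Aa was at 16.3, 21.3 and 45.6 CPM in controls and 23, 31.2 and 39.7 CPM in tryptophan hearts (0.36 ± 0.17), and H2-Eb1 had medians of 17.6 and 25.4 CPM (0.33 ± 0.18, and 0.51 without Control 3). The highest control exceeded every tryptophan heart for both. The summed B cell markers, which also express these genes, were at 10.9 to 123 CPM in controls and 13.8 to 73.6 CPM in tryptophan hearts, and their part in these values was not tested. Cd8a, a T cell marker, had medians of 0.217 and 0.320 CPM (0.79 ± 0.31). The T and NK markers summed to 4.70 to 8.23 CPM in controls and 5.73 to 7.46 CPM in tryptophan hearts.

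All 15 MHC class I genes had values above 0 (median 0.11), and so had 34 of 39 interferon-stimulated genes (median 0.09, 1 with an unadjusted p below 0.05). That 1 was Cxcl9, a chemokine induced by interferon gamma, at 2.45, 2.93 and 4.66 CPM in controls and 3.01, 3.91 and 5.96 CPM in tryptophan hearts (0.35 ± 0.14). Nos2, the inducible nitric oxide synthase, had medians of 7.69 and 9.44 CPM (0.24 ± 0.09). The class I median within dissection batches was 0.39, -0.40, 0.22 and 0.19, so batch 2 had the other sign.

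Of 32 tested cell cycle genes 28 had values above 0 (median 0.16), 5 of them with an unadjusted p below 0.05. Top2a, the topoisomerase of dividing cells, was at 0.329, 0.918 and 1.98 CPM in controls and 0.918, 1.48 and 2.47 CPM in tryptophan hearts. No tryptophan heart lay below the control median, but most lay within the control range. Its log2 fold change was 0.73 ± 0.25, and 0.49 without dissection batch 3. Kif11, a mitotic motor, had medians of 0.892 and 1.17 CPM (0.43 ± 0.14), and Ccna2, a cyclin, 0.454 and 0.616 CPM (0.59 ± 0.23).

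Of 31 matrix genes 25 had values above 0 (median 0.14), 3 of them with an unadjusted p below 0.05. Col3a1, a fibrillar collagen, was at 114, 143 and 229 CPM in controls and 105, 193 and 399 CPM in tryptophan hearts (0.39 ± 0.16), and Tryptophan 8 held the value of 399. Mmp14, a membrane-bound matrix protease, had medians of 9.63 and 11.1 CPM (0.22 ± 0.10), with the highest value again in Tryptophan 8, and 0.14 without that library. The list's median was 0.13, 0.32, 0.15 and -0.13 within the 4 batches. Col3a1 is also a fibroblast marker, and of those 10 markers 7 were higher and 3 lower (median 0.03). In each direction 1 had an unadjusted p below 0.05, Col3a1 above 0 and Gsn, the actin-severing gelsolin, below 0 (-0.11 ± 0.04). The fibroblast markers summed to a mean of 2464 CPM in controls and 2402 CPM in tryptophan hearts (exact permutation p = 0.316).

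Contractile and stress genes had small values and no call. Tcap, the titin cap of the sarcomere, had a log2 fold change of -0.20 ± 0.06, and Actc1, cardiac actin, 0.12 ± 0.06. Of 28 sarcomere genes 9 were higher and 19 lower (median -0.02), and of 34 calcium handling and channel genes 8 and 26 (median -0.04). Of 32 chaperones and related genes of the heat shock and unfolded protein responses 21 were higher and 11 lower (median 0.02, and -0.01 without Tryptophan 5). The list's 1 member with an unadjusted p below 0.05 was Herpud1, of the endoplasmic reticulum stress response, at medians of 198 and 182 CPM (-0.16 ± 0.05). The cyclooxygenase genes Ptgs1 and Ptgs2, which naproxen targets, had log2 fold changes of -0.11 ± 0.07 and -0.05 ± 0.16, and the prostaglandin receptor gene Ptgfr -0.27 ± 0.12 (unadjusted p = 0.0427).

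Ribosomal protein and respiratory chain lists showed how far a list can move within 2 against 2 hearts. Of 52 cytosolic ribosomal protein genes 51 had values above 0, with a median of 0.10 and no unadjusted p below 0.05. Within the dissection batches that median was 0.57, -0.41, 0.10 and 0.09. Without batch 1 it was -0.05, and without batch 2 it was 0.27. Rpl13 was at 175 to 315 CPM in controls and 175 to 381 CPM in tryptophan hearts (0.21 ± 0.16), and Rpl30 at 107 to 144 and 107 to 140 CPM (0.10 ± 0.07). The 57 nuclear-encoded respiratory chain genes had medians of 0.22, -0.34, -0.07 and 0.11 within batches and 0.00 over all, and their sign changed in 18 of 31 alternative fits. Ribosomal protein genes have many near-identical copies, so how counts were split between copies is uncertain.

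**Figure D3:**
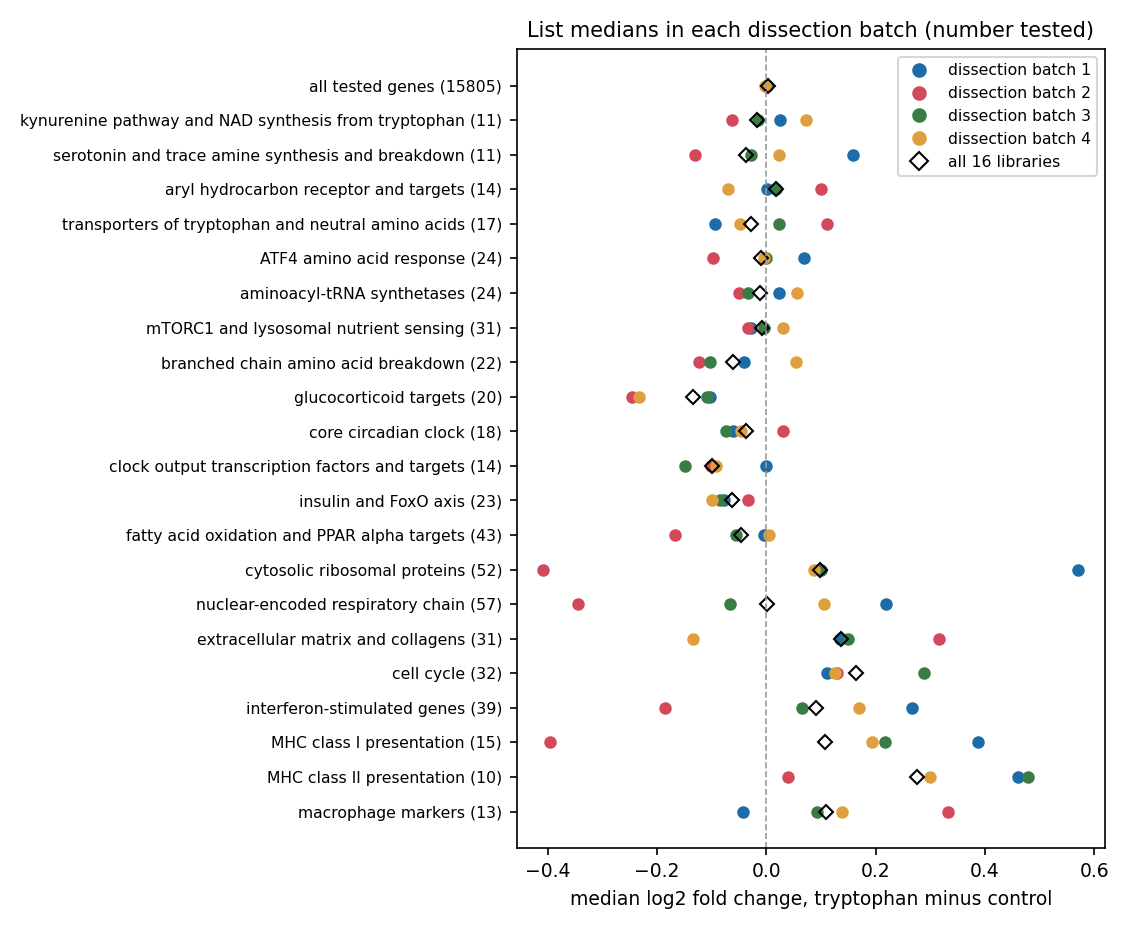
Median log2 fold change (horizontal axis, tryptophan minus control) of the tested members of each list, over all 16 hearts (diamonds) and within each dissection batch of 2 against 2 (points). Glucocorticoid targets lie below 0 in all 4 batches and MHC class II genes above 0, while ribosomal protein genes run from -0.41 to 0.57.

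Single libraries moved most of these medians. Of the 57 lists, 53 had a median that moved by over 1.5 times or changed sign when 1 library was left out, and 22 changed sign. The other 4 were glucocorticoid targets (-0.17 to -0.09), MHC class II genes (0.19 to 0.39), cell cycle genes (0.11 to 0.22) and clock output factors and targets (-0.11 to -0.07). This measure is relative to the median of the full fit, which was -0.13, 0.28, 0.16 and -0.10 for these 4. Lists with a median near 0, such as the respiratory chain at 0.00, move by it on very small shifts. Passing it thus depends on the size of the median as well as on stability. Class I genes were at 0.05 and interferon-stimulated genes at 0.04 without Control 2, matrix genes at 0.06 without Tryptophan 8, and macrophage markers at 0.06 and ribosomal protein genes at 0.04 without Tryptophan 1.

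Levels of some red cell, clock and other genes differed between the dissection batches. The same fit called 111 genes for dissection batch (0.702% of 15805 tested), and 2567 genes (16.2%) had an unadjusted p below 0.05. Leaving out single libraries gave 18 to 493 calls: 493 without Tryptophan 8, 250 without Control 3, 207 without Tryptophan 1 and 18 without Control 5. Globin and haem genes of red cells were among those that differed most clearly. Hba-a2 was at 483 to 614 CPM in batch 1, 991 to 1283 CPM in batch 2, 566 to 813 CPM in batch 3 and 540 to 715 CPM in batch 4 (adjusted p = 0.000697). The 4 hearts of batch 2 stood above all others whatever their treatment. Hba-a1, its near-identical copy (adjusted p = 0.00158), and Alas2, the erythroid haem synthesis enzyme (38.8 to 51.6 CPM in batch 2, 18.7 to 30.1 CPM elsewhere; adjusted p = 0.00172), followed the same pattern. In all, 6 of 9 tested erythroid markers were called, with a median log2 difference of 1.11 between batches 2 and 1. White adipocyte markers differed by a median of 2.24 between the same batches, with 1 of 11 called. The source of these differences was not tested.

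Other genes called for dissection batch included Cited2, a transcriptional co-regulator, at 21.9 to 30.3 CPM in batch 3 and 14.9 to 21.6 CPM elsewhere (adjusted p = 0.00158). Arrdc2, an arrestin-domain gene, was at 30.6 to 41.9 CPM in batch 3 and 11.6 to 26.6 CPM elsewhere, and Fam107a was at 9.31 to 13.2 and 4.63 to 7.44 CPM (adjusted p = 0.00172 and 0.00284). Fabp5, a fatty acid binding protein, was at 40.9 to 47.7 CPM in batch 2 and 24.0 to 37.7 CPM elsewhere (adjusted p = 0.00172). Atf3, an immediate early gene, and Herpud1 were called too, with adjusted p-values of 0.0211 and 0.00985.

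Clock genes also differed between dissection batches. Per1, a clock repressor, was at 82.3 to 86.2 CPM in batch 1, 57.5 to 64.9 in batch 2, 66.6 to 87.6 in batch 3 and 74.5 to 89.1 CPM in batch 4 (adjusted p = 0.0253). The 4 hearts of batch 2 lay below all others for Per1, treated and control hearts alike. Cry1, its partner, was at 7.91 to 8.97 CPM in batch 1, 5.32 to 6.39 CPM in batch 2, 6.45 to 6.92 CPM in batch 3 and 6.23 to 7.51 CPM in batch 4 (adjusted p = 0.0253), and Usp2 was called as well (adjusted p = 0.0364). Per2 was at 36.1 to 40.4, 15.9 to 23.6, 21.8 to 42.6 and 27.0 to 35.9 CPM in batches 1 to 4, and Arntl, the activator of all 3, at 1.92 to 3.87, 5.26 to 9.28, 2.61 to 6.58 and 3.57 to 5.82 CPM. Both missed the threshold (adjusted p = 0.0565 and 0.093), and batch 2 overlapped with batch 3 for Per2 and with batches 3 and 4 for Arntl. Of 18 core clock genes 10 had an unadjusted p below 0.05 for batch, beside 16.2% of all tested genes.

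Clock activators bind the E-box, written CACGTG and the same on both strands. Because the clock acts through this element, it was sought in the start regions of 5 clock genes, Per1, Per2, Cry1, Nr1d1 and Arntl. Other called clock genes, such as Usp2, were not looked up. RefSeq's promoter table for GRCm38.p6, from 250 bases before to 50 after each gene's start, held 4 of the 5 clock genes looked up (Per1, Cry1, Nr1d1 and Arntl matched). The motif was found in 2 of these windows and in 2349 of 32851 promoters (7.15%). The lines below give 66 bases around it, with the motif in capitals, for Per1 at chr11:69098753-69098818 on the plus strand and Cry1 at chr10:85185079-85185144 on the minus strand.
Per1: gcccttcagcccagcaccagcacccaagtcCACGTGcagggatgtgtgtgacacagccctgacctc
Cry1: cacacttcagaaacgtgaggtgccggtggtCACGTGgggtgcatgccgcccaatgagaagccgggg
A match describes the letters in the window and is not a measured binding site.

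**Figure D4:**
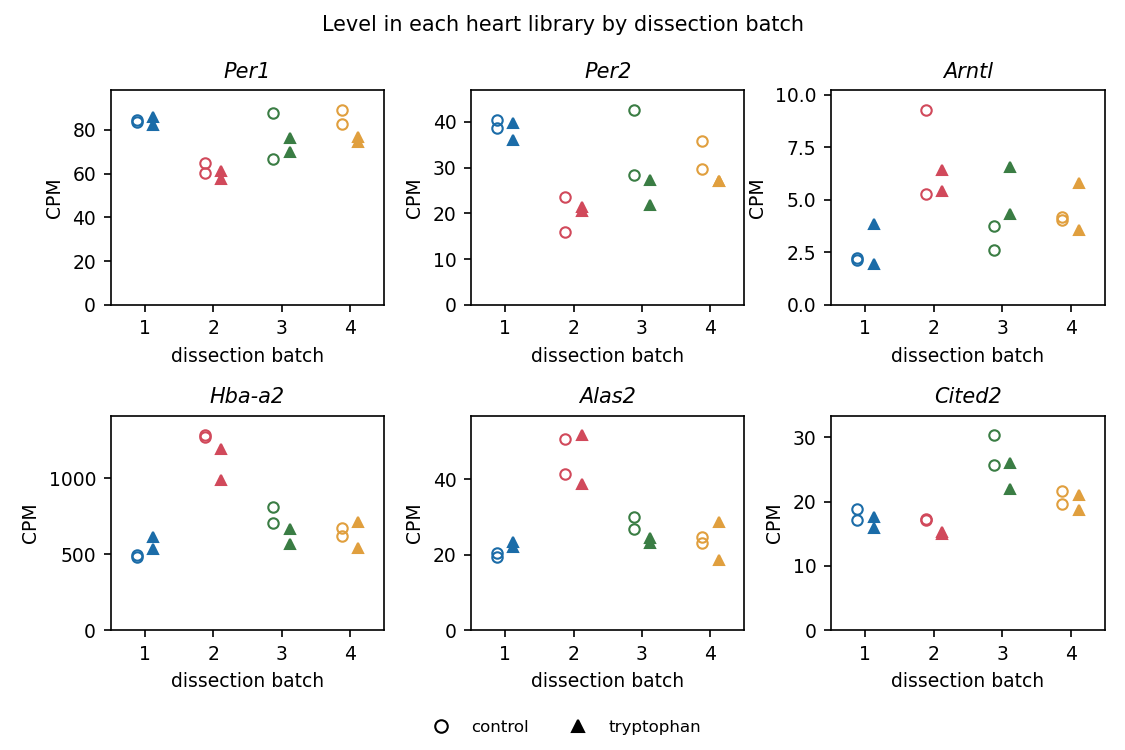
CPM (vertical axes, linear) of 6 genes in each of the 16 hearts by dissection batch, with circles for control and triangles for tryptophan. In both treatments batch 2 is lowest for Per1 and highest for Hba-a2 and Alas2, and batch 3 is highest for Cited2, while batches 2 and 3 overlap for Per2 and Arntl.

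Whether the tryptophan difference itself varied between dissection batches was tested with 3 interaction terms. Of 15805 genes 0 (0%) were called in edgeR, and 1063 (6.73%) had an unadjusted p below 0.05. The smallest adjusted p was 0.0908, for the predicted gene Gm4739, and DESeq2 called 15. Sgk1, a kinase that glucocorticoids and insulin induce, had differences of -0.31, -0.05, 0.47 and -0.12 within batches 1 to 4, and Skil, a repressor of TGF beta signalling, -0.26, 0.46, -0.03 and -0.08. With 2 hearts of each group per batch these values rest on few animals.

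The tryptophan difference in chow-fed mice was set against that in naproxen-fed mice, in 1 fit of the 39 hearts of both cohorts. Cohort and diet changed together and cannot be told apart. The difference of the 2 differences was called for 6 of 16769 genes (0.0358%), and 1007 (6.01%) had an unadjusted p below 0.05. On naproxen, tryptophan against saline called 68 genes (0.406%), while tryptophan alone called 0 in this fit too. Among the 6 were Cx3cr1, Csf1, Plekhf1, Cryba4 and F630028O10Rik, each with an adjusted p of 0.0351, and all 5 were among the 68. In each of these 5 the larger value was that of the naproxen-fed hearts.

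Cx3cr1 and Csf1, both with a known place in macrophage biology, had values above 0 alone and below 0 on naproxen. Cx3cr1 had medians of 1.56 and 2.87 CPM in control and tryptophan hearts and of 2.68 and 1.08 CPM in naproxen and naproxen plus tryptophan hearts. Its log2 fold changes were 0.68 ± 0.24 and -1.13 ± 0.25, a difference of 1.81 ± 0.35. Csf1, the macrophage growth factor (chromosome 3, 107741048 to 107760469), had medians of 41.7 and 43.9 CPM, and of 45.5 and 32.6 CPM on naproxen, with log2 fold changes of 0.10 ± 0.07 and -0.45 ± 0.08. All 8 naproxen plus tryptophan hearts lay at 30.1 to 35.3 CPM of Csf1, while naproxen hearts ran from 35.6 to 53.9 CPM and did not overlap with them.

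Plekhf1, a phosphoinositide-binding protein of endosomes and lysosomes, went the other way, with medians of 20.3 and 18.3 CPM, and of 12.6 and 17.4 CPM on naproxen (-0.13 ± 0.08 and 0.44 ± 0.08). Cryba4, a crystallin gene, had 3.61 and 3.06 CPM, and 1.96 and 3.09 CPM on naproxen (-0.24 ± 0.12 and 0.64 ± 0.13). Controls of experimental batch 2, on normal chow, had medians of 12.9 CPM for Plekhf1 and 2.14 CPM for Cryba4. These lay near the naproxen hearts of that cohort and below the 20.3 and 3.61 CPM of experimental batch 3 controls. F630028O10Rik, annotated as antisense on chromosome X (96239926 to 96243636), had 1.29 and 1.45 CPM, and 1.24 and 0.599 CPM on naproxen (0.12 ± 0.14 and -0.96 ± 0.15). Whether the counting used strand is not stated in the sources used, so reads of this gene and of its partner on the other strand may be mixed. These calls were fragile: leaving out 1 of the 16 libraries of experimental batch 3 gave 0 to 12 calls, 10 of the 16 fits giving none. Leaving out 1 of the 15 naproxen libraries also gave 0 to 12, with none in 11 fits. The 5 named differences kept their sign in all 31 of these fits, Cx3cr1 running from 1.74 to 1.97 and Csf1 from 0.50 to 0.60.

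**Figure D5:**
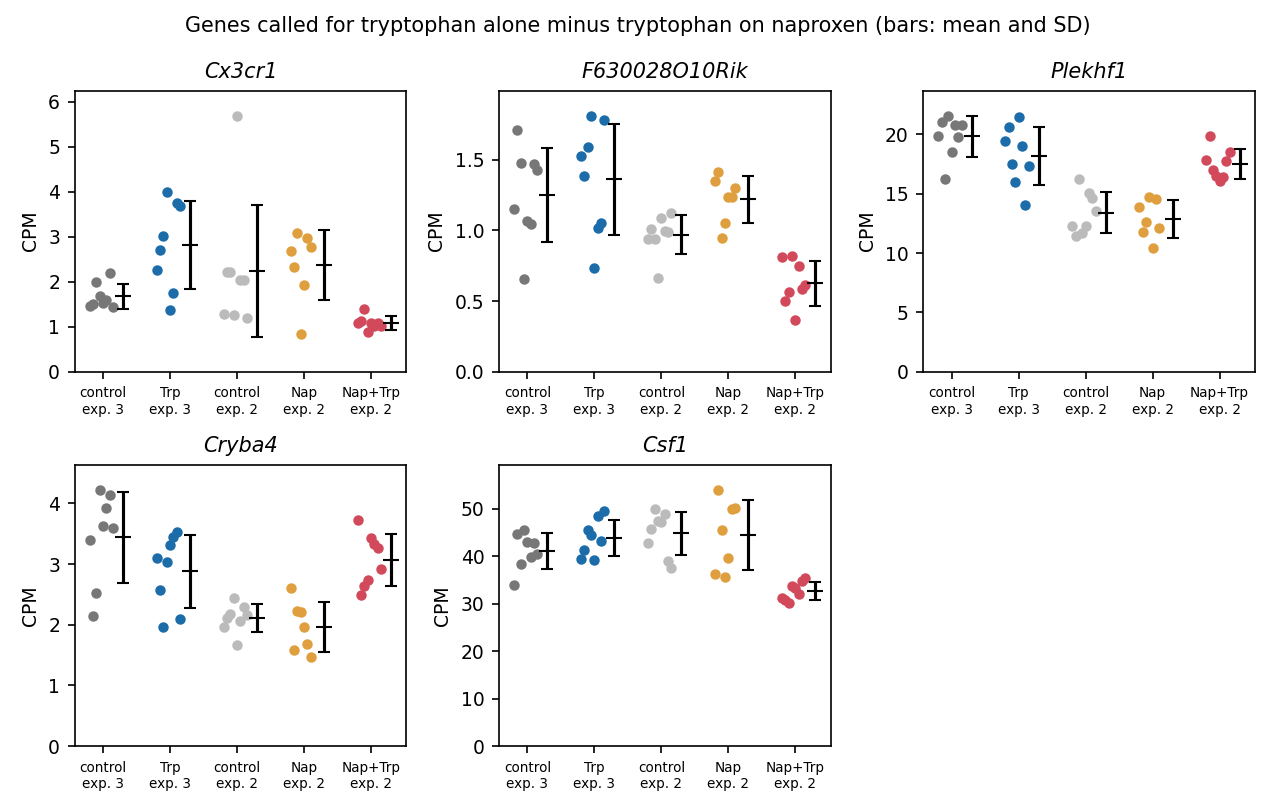
CPM (vertical axes, linear) in each heart of 5 groups for 5 genes called for the difference between tryptophan alone (experimental batch 3) and on naproxen (experimental batch 2), with bars for the mean and SD. Naproxen plus tryptophan hearts are the low group for Csf1, Cx3cr1 and F630028O10Rik, while control and tryptophan hearts of experimental batch 3 overlap in every panel.

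The medians of immune lists and of some others are given side by side. Those for tryptophan alone come from the fit of 16 hearts and those on naproxen from the fit of 39. Macrophage markers had a median of 0.11 alone and -0.33 on naproxen, with 6 of 13 at an unadjusted p below 0.05 for the difference and 1 called, beside 6.01% and 0.0358% of all tested genes. MHC class II genes had 0.28 and -0.36, with 1 of 10 at such a p, and interferon-stimulated genes 0.09 and -0.13, with 3 of 39. Neutrophil markers had 0.14 and -1.05, with 3 of 7, and B cell markers 0.27 and -0.46, with 0 of 12. None of these 4 lists had a called member. Differences were not limited to immune lists. Mitochondrial ribosomal protein genes had medians of 0.01 and 0.18, with 10 of 44 at such a p, and immediate early genes -0.01 and 0.11, with 8 of 27. Tricarboxylic acid cycle genes had -0.05 and 0.06, with 5 of 19, and nuclear-encoded respiratory chain genes 0.00 and 0.25, with 7 of 57. In these non-immune lists every such member had a difference below 0, and none was called. Alone, the neutrophil median was 0.01 without Tryptophan 3, the B cell median 0.50 without Control 3 and the interferon median 0.18 without Control 7. The median difference of the B cell markers, 0.76, was -0.74 without Naproxen 3 and 1.66 without Naproxen+Tryptophan 4, and that of the interferon-stimulated genes, 0.19, was 0.08 without Naproxen 7. The library sums of the 4 groups, in CPM scaled over the 39 hearts, overlapped: macrophage markers summed to 167 to 217 CPM in controls, 178 to 276 CPM in tryptophan, 132 to 337 CPM in naproxen and 150 to 231 CPM in naproxen plus tryptophan hearts. Neutrophil markers summed to 5.45 to 22.5, 8.49 to 25.8, 13.6 to 42.4 and 2.77 to 82.2 CPM in the same order. The part that leukocyte content played in the 6 calls was not tested. Fkbp5, by comparison, had a log2 fold change of -0.50 alone and of -0.65 ± 0.19 on naproxen, with a difference of 0.15 (adjusted p = 0.967).

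In the jejunum of a further cohort, 8 mice given tryptophan and 8 controls were measured with another library kit. There too 0 of 17185 genes (0%) were called in edgeR, and 0 in DESeq2, with 456 (2.65%) at an unadjusted p below 0.05 and a smallest adjusted p of 0.999. Side by side and with no test between tissues, the log2 fold changes in heart and jejunum were -0.50 and -0.22 ± 0.18 for Fkbp5, 0.70 and -0.36 ± 0.30 for Cx3cr1, 0.57 and -0.39 ± 0.28 for Csf2rb, and 0.93 and -0.03 ± 0.55 for Haao. For Ahr they were 0.05 and -0.14 ± 0.11, and for Wars 0.00 and -0.02 ± 0.09.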

How the data were processed

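Estimated counts per gene were deposited by the authors, made with Salmon 1.9.0 and R 4.2.2 against GRCm38 per the submitters' processing notes. How transcripts were summed to genes, and whether strand was used, is not stated in the sources used. Poly-A selection and a stranded kit were used for heart RNA, per the labels' protocols. Of the values, 25.3% were not whole, and all were rounded here. Every column of the table belonged to a sample of the series.

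In R 4.3.3, edgeR 4.0.16 kept genes with filterByExpr (minimum count 10), scaled by TMM and ran robust quasi-likelihood F tests with dissection batch as a block. Benjamini-Hochberg adjustment ran over every tested gene, and genes were called at an adjusted p of 0.05. Errors after ± are standard errors for log2 fold changes and SD elsewhere; CPM uses the TMM-scaled library size. Named genes were the 20 with the smallest p (mean of at least 1 CPM, 1 sign in all 4 dissection batches, no predicted genes), up to 3 per list, cyclooxygenase and tryptophan genes, and the leading genes of the other tests. Some of those named are not printed. DESeq2 1.42.0 and limma 3.58.1 (voom) were alternatives, beside other scalings, filters and blocks and leaving out each library and dissection batch. Library features were compared by exact permutation within dissection batch (1296 arrangements, smallest p 0.00154), and adjusted over 21 features no p was below 0.907. The tests were tried on simulated counts. The members, the 57 gene lists and the tests were chosen with earlier results of these data known; lists share members. Coordinates came from GENCODE vM21 by Ensembl ID. Animal or title numbers were not taken to pair hearts: of 8 pairs of each, 4 correlated above 0.1, and labels give such numbers within a treatment only.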

Additional observations from a re-analysis of the deposited data

Results flagged for a closer look

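A single library lay far from the other 7 of its group by Dixon's test in 20 of 234 groups of 8 values tested (8.55%; chance gives about 1 in 20), and 9 of the 20 came from Control 6. In Control 6 the high values were 0.487 CPM for Ido1, 14.9 CPM for Angptl4, 9.28 CPM for Arntl and 207 CPM for Ucp1, and the low value was 4.38 CPM for Ahr. The same heart was high for the summed markers of endothelium (1745 CPM), thymocytes (12.5 CPM), white adipocytes (1878 CPM) and lung epithelium (239.5 CPM). Only 1 of 8 thymocyte markers and 3 of 10 lung markers were expressed highly enough to test. Rag1, Rag2, Cldn18 and Nkx2-1 had 0 counts in all 16 libraries. The thymocyte and lung sums thus rest on few genes, and whether such tissue was present was not tested. Other controls stood out with 7.58 CPM of Sipa1l3 in Control 1, 333 CPM of Pdk4 in Control 3 and 0.416 CPM of Haao in Control 7. Tryptophan 8 was high for Col3a1 (399 CPM), Mmp14 (18.3 CPM) and the summed atrial markers (5152 CPM). Tryptophan 7 was high for Cd8a (0.737 CPM) and low for Htr7 (0.230 CPM). Further single values were 6.19 CPM of Chac1 in Tryptophan 2, 7.46 CPM of summed T and NK cell markers in Tryptophan 6 and 104 CPM of summed liver markers in Tryptophan 1.

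The tryptophan difference differed between chow-fed and naproxen-fed hearts, by edgeR's test of the difference, for Cx3cr1, F630028O10Rik, Csf1, Plekhf1 and Cryba4 at an adjusted p of 0.0351 each. The difference of the log2 fold changes, alone minus on naproxen, was 1.81 for Cx3cr1, 1.08 for F630028O10Rik and 0.54 for Csf1, and it was -0.57 for Plekhf1 and -0.88 for Cryba4. Leaving out single libraries of either cohort left each of the 5 called in 6 or 7 of 31 fits, and cohort and diet cannot be told apart.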

How the results depend on the processing

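Tryptophan against control gave 0 calls under every scaling, block, leave-one-out and voom setting run, and 2 with DESeq2; with no filter on low counts 179 of 28753 genes were called, 132 of them also tested with the filter, where their median standard error was 0.272 against 0.0747 without it. With the replicate block by title number or by animal number, in place of dissection batch, 0 genes were called, with 399 and 539 at an unadjusted p below 0.05; same-numbered pairs correlated between -0.129 and 0.429, and 3 of 8 controls correlated best with their own title number. Dissection batch gave 1046 calls with DESeq2, 2340 with no filter and 18 to 493 with single libraries left out (18 to 68 in 11 of those 16 fits). The test of tryptophan by dissection batch gave 15 calls with DESeq2 and 1197 with no filter. The difference from tryptophan on naproxen gave 21 calls with DESeq2, 0 with no filter (smallest adjusted p 0.0661) and 0 to 12 with single libraries of experimental batch 3 left out, 12 of them without Tryptophan 7; leaving out naproxen libraries, an alternative chosen after seeing the data, gave 0 to 12 as well. Without dissection batch 2, 1 of the 21 library features, summed T and NK cell markers, had an unadjusted p below 0.05 (1.27 CPM higher with tryptophan, exact permutation p = 0.0278). Of the 57 list medians 23 were above 0, and 19 to 29 with single libraries left out. Of 96 genes followed through these fits, 37 log2 fold changes moved by over 1.5 times or changed sign (8 of them) without 1 library; among the 58 more than 2 standard errors from 0 these were Angptl4, Mmp14, Mrc1, Mt2 and Pdk4, with no change of sign. The cause of these changes was not tested. Genes under the count filter, such as Tdo2 and Tph1, could not be compared at this depth.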
